A study of Mus musculus with 24 samples.

Results

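Gene deserts are stretches of the genome that lie far from any annotated gene. The regions described here are 100 bp tiles of the mouse genome, build mm10, which were measured in all 3 of liver, brain and heart, held 1 to 6 CpGs and fewer than 50 soft-masked (repeat) bases, and lay more than 100 kb from every curated RefSeq transcript. There were 45632 such tiles, or 6.01% of the 758685 tiles present in all 3 deposited tables. They fell into 1362 separate deserts with a median of 21 tiles each. They are deserts by the curated set only. Of the 45632 tiles, 17862 lay over 100 kb from predicted RefSeq transcripts too, and 9161 over 100 kb from GENCODE transcripts. A GENCODE transcript was touched by 14.8% of them. For comparison, 303710 tiles with the same limits on CpGs and repeats touched a curated transcript and are called intragenic. Their values were weighted so that tiles with 1, 2, 3, 4, 5 and 6 CpGs made up the same shares as in the deserts.

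The libraries were made by enhanced reduced representation bisulphite sequencing (RRBS), which cuts DNA with restriction enzymes and reads the methylation of CpGs close to the cuts. They came from 6 male and 6 female livers, 3 male and 3 female brains and 3 male and 3 female hearts of C57Bl/6J mice at 24 weeks of age, with no treatment and no altered allele in any group. The methods describe the material as the tail end of the left liver lobe, a slice from the front of the brain and the tip of the heart, so each library holds a mixture of cell types. Columns are numbered within a table but cannot be traced to a mouse. A library is therefore named by its tissue and column number, gender was not used, and the spread between libraries of a tissue includes any difference between genders. Each tissue has its own table, filtered on its own coverage, so table and tissue cannot be told apart, and the read depth behind a level is unknown beyond the authors' minimum.

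In mammals most CpGs carry a methyl group on the cytosine. CpG-dense promoters are the main exception, since they are usually free of methylation, and active enhancers often have reduced methylation. Large gene-poor domains that replicate late can lose methylation gradually over cell divisions and then show intermediate levels, most of all at isolated CpGs flanked by A or T. A level of a tile is the share of its reads that were methylated. Levels under 20% are called low, levels from 20 to 80% partial and levels above 80% high, and the tissue level of a tile is the mean over the tissue's libraries.

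The tissues were checked by the level of tiles within 2 kb of the transcription starts of marker genes. All 5 measured liver markers of 8 listed (Apoa2, Ttr, Apob, Serpina1a and Fgb) had their lowest level in liver, as did 5 of 7 measured heart markers in heart and 5 of 7 measured brain markers in brain. Of the heart markers, Nppa (68.0% in heart, 43.1% in brain) and Ryr2 did not, and Myh6 was nearly equal in heart (44.5%) and liver (44.8%). The brain markers Mbp and Grin1 were lowest in heart. Heart also had the lowest mean over all tiles. For the liver list, the mean over genes was 20.8% in liver, against 57.7% in brain and 54.9% in heart. For the heart list it was 45.1% in heart against 63.1% in liver and 61.3% in brain, and for the brain list 32.2% in brain against 38.3% in liver and 35.1% in heart. Spi1, a transcription factor of blood cells, was lower in heart, with 60.4% over its 8 tiles, than in liver with 78.6% and brain with 73.4%, as the desert level was. The part of blood cells in the results was not tested.

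The sequences below are those of 12 desert tiles chosen because each sets 1 tissue apart from the other 2, and their levels are given further on. They are read from the mm10 reference on the plus strand, 5′ to 3′, and the capitals mark the CpGs, each of which is 1 site that can be methylated. T3 at chr16:24240801-24240900 and T4 at chr7:136492201-136492300 had low levels in liver, while in T5 at chr12:114889501-114889600 and T6 at chr3:85186901-85187000 liver had by far the highest level.
T3: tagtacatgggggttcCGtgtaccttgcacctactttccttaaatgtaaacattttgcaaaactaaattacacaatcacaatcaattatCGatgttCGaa
T4: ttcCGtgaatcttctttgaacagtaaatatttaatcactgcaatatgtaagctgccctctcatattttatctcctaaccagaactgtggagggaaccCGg
T5: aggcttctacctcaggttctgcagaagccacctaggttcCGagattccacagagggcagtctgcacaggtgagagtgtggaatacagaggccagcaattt
T6: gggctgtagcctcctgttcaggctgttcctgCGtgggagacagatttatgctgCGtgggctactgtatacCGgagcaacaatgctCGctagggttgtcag

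In T7 at chr4:40014901-40015000 and T8 at chr1:42540001-42540100 the level was lowest in brain. In T9 at chr15:63067101-63067200 and T10 at chr8:78091001-78091100 it was high in brain only among the 3 tissues.
T7: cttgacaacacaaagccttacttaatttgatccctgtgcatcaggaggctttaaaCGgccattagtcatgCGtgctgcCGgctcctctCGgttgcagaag
T8: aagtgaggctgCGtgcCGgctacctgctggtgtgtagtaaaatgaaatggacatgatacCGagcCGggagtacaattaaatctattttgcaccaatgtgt
T9: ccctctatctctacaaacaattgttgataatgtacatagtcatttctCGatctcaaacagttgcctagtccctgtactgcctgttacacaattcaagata
T10: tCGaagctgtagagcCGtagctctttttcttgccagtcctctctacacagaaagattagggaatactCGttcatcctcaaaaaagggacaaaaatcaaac

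T11 at chr8:107974501-107974600 and T12 at chr8:103463701-103463800 had by far their lowest level in heart. T13 at chr8:127940001-127940100 and T14 at chr13:115346701-115346800 had their highest level there.
T11: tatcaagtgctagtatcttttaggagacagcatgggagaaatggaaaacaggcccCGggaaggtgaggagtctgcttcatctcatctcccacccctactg
T12: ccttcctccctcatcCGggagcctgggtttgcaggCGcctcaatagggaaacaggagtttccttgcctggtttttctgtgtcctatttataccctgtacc
T13: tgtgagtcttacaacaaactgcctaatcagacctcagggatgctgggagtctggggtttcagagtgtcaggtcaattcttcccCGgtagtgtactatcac
T14: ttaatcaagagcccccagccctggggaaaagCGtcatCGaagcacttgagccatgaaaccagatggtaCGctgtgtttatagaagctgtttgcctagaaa

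Desert tiles were mostly methylated in every tissue, but less so in heart, as were tiles elsewhere in the genome. Liver libraries had a mean level of 74.4% ± 0.559 (SD, n = 12), brain libraries 76.0% ± 1.40 (n = 6) and heart libraries 66.9% ± 0.352 (n = 6). Per library it ran from 73.4 over a median of 74.5 to 75.1% in liver, from 73.5 over 76.0 to 77.8% in brain and from 66.6 over 66.8 to 67.6% in heart. All heart libraries lay below all liver and brain libraries, whereas the liver and brain libraries overlapped. Over all 758685 tiles the mean level was 65.3% for liver, 65.2% for brain and 59.8% for heart, and over the weighted intragenic tiles 71.3, 70.1 and 64.9%, so heart was lowest in each set, while of these 3 sets brain exceeded liver only in the deserts. The heart level was 7.46 points below that of liver (two-sided exact permutation test over libraries, adjusted p = 0.000323) and 9.02 points below that of brain (exact permutation test, adjusted p = 0.00325), in both cases the smallest p that these numbers of libraries allow before adjustment. The brain level was 1.57 points above that of liver (exact permutation test, adjusted p = 0.00603). p-values over libraries measure only the spread between these libraries.

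This order held over most of the genome. The mean desert level was lowest in heart and higher in brain than in liver on each of the 19 autosomes. Among chromosomes it ran from 73.2 to 75.7% in liver, from 74.6 to 77.4% in brain and from 65.0 to 68.8% in heart. Of the 706 deserts with at least 20 tiles, heart was the lowest of the 3 tissues in 681, while brain lay above liver in 475. Single deserts varied more than chromosomes, with means from 51.8 to 90.7% in liver, from 50.6 to 89.8% in brain and from 45.03 to 83.7% in heart. The desert with the second most tiles, 269 over 1.83 Mb of chromosome 3 between Ttll7, a tubulin-modifying enzyme, and Adgrl2, an adhesion receptor, had means of 78.3% in liver, 77.3% in brain and 72.4% in heart. The one with the third most, 257 tiles over 1.08 Mb of chromosome 2 between Dok5 and 1700028P15Rik, had means of 76.8, 79.5 and 72.3% in the same order of tissues. Brain lay below liver in the first of these deserts and above it in the other, with overlapping libraries in both.

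Compared with intragenic tiles weighted to the same CpG numbers, desert tiles had the higher mean level in all 24 libraries. The difference within a library averaged 3.06 points ± 0.468 (SD, n = 12) in liver, 5.89 ± 0.550 (n = 6) in brain and 2.07 ± 0.133 (n = 6) in heart. It was above 0 in 12 of 12, 6 of 6 and 6 of 6 libraries (two-sided exact sign-flip permutation test over libraries, adjusted p = 0.00146 in liver and 0.0312 in brain and in heart). The difference was itself larger in brain than in liver (liver minus brain -2.83 points, exact permutation test, adjusted p = 0.000162) and larger in brain than in heart by 3.83 points (exact permutation test, adjusted p = 0.00216), with no overlap of libraries. The direction depended on the CpG number. Tiles with 1 CpG were lower in deserts in liver (70.7 against 72.6%) and heart (62.0 against 65.3%), but not in brain (74.5 against 72.1%). With 2 or more CpGs the desert mean was higher in each tissue. The median tissue level was lower in deserts in liver (81.1 against 83.3%) and heart (72.6 against 74.5%) and higher in brain (82.1 against 79.9%). The direction also depended on the intragenic tiles chosen. Against intronic tiles at least 5 kb from every transcription start, deserts were lower by 2.14 points in liver (a difference of -2.14, exact permutation test, adjusted p = 0.00146) and by 2.42 points in heart (-2.42, exact permutation test, adjusted p = 0.0469), and in brain the difference was 0.989 points (exact permutation test, adjusted p = 0.0625).

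**Figure D1:**
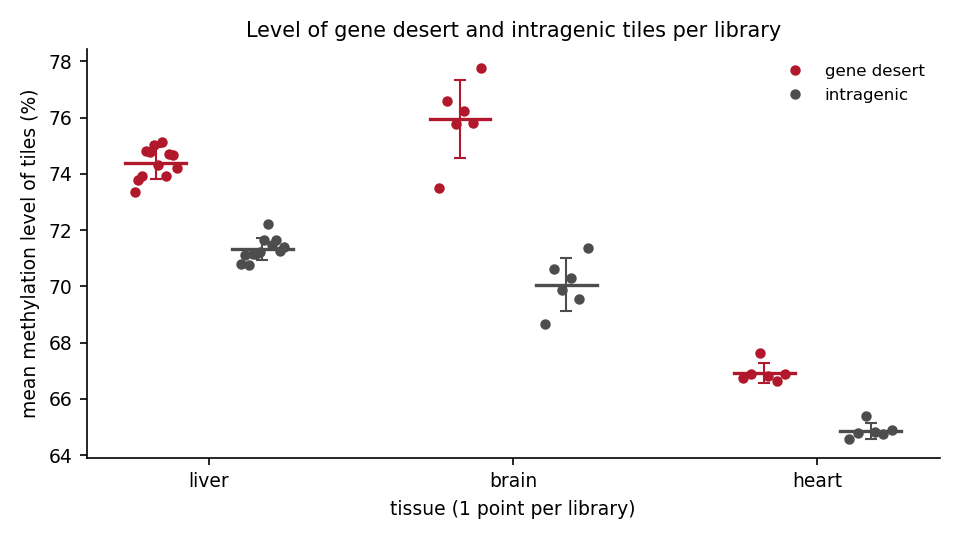
Mean methylation level (%) of gene desert tiles (red) and of intragenic tiles weighted to the same CpG numbers (grey), 1 point per library, with the mean (line) and the SD over libraries (bars). The vertical axis does not start at 0. Desert tiles averaged 74.4% in liver, 76.0% in brain and 66.9% in heart, above the intragenic tiles of the same library in all 24 libraries.

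Deserts held fewer tiles with low levels and more with partial levels than intragenic tiles. In a library, low tiles made up 3.24% ± 0.145 (SD, n = 12) of the deserts in liver, 2.23% ± 0.373 (n = 6) in brain and 4.72% ± 0.225 (n = 6) in heart. Among intragenic tiles, which include tiles at transcription starts and in exons, they made up 10.8, 9.23 and 11.7%. Shares of low or partial tiles were not compared with introns away from transcription starts. The deserts thus held fewer low tiles in every library (mean differences of -7.54, -6.999 and -6.97 points, exact sign-flip permutation test, adjusted p = 0.00146 in liver and 0.0312 in brain and heart). Partially methylated tiles were more frequent in deserts than in intragenic tiles, by 10.7 points ± 0.602 in liver, 2.37 ± 1.485 in brain and 11.7 ± 0.407 in heart (n = 12, 6 and 6, exact sign-flip permutation test, adjusted p = 0.00146, 0.0312 and 0.0312). With weights on CpG number and site the excess in brain was 1.16 points and no longer passed (exact sign-flip permutation test, adjusted p = 0.0938). The excess was smaller in brain than in liver by 8.30 points (exact permutation test, adjusted p = 0.000323) and smaller in brain than in heart by 9.35 points (exact permutation test, adjusted p = 0.00216). High levels were less frequent in deserts than in intragenic tiles by 3.12 points in liver and 4.75 points in heart (differences of -3.12 and -4.75) but more frequent by 4.63 points in brain.

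By tissue level, 44.7% of desert tiles were partially methylated in liver, 43.6% in brain and 59.3% in heart. The weighted intragenic shares were 33.8, 41.4 and 46.9%. The 5th percentile of the desert levels stood at 28.6% for liver, 35.2% for brain and 21.9% for heart. For intragenic tiles it was 4.34, 4.55 and 3.28%. Levels of 95% or more, the top of the range, also fell to fewer desert than intragenic tiles, so that the deserts held fewer tiles at both ends of the scale. In single libraries, the partial share came to 44.9% ± 1.25 (SD, n = 12) for liver, 43.0% ± 3.43 (n = 6) for brain and 58.6% ± 0.624 (n = 6) for heart. All heart libraries lay above all others (exact permutation test, adjusted p = 0.000323 against liver and 0.00325 against brain), whereas the difference of 1.82 points between liver and brain did not pass the test (exact permutation test, adjusted p = 0.122).

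**Figure D2:**
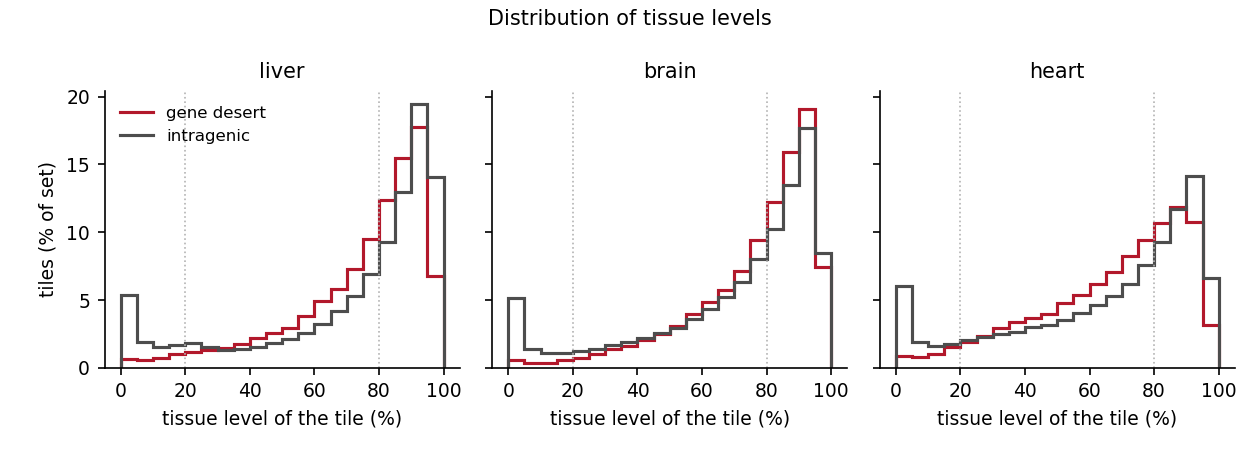
Distribution of tissue levels (%, in steps of 5 points) of desert tiles (red) and CpG-weighted intragenic tiles (grey) as a percentage of each set, with dotted lines at 20 and 80%. The intragenic peak near 0 is almost missing in the deserts, and in heart the desert levels reach furthest down into the partial range, which holds 59.3% of the tiles.

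Partial methylation was largely shared between tissues. A total of 13672 tiles, or 29.96% of the members, were partial in all 3 tissues, and 13984, or 30.6%, were high in all 3. Another 5605, or 12.3%, were partial in heart only, compared with 1975 in brain only and 913 in liver only. Levels of 40 to 60% in all 3 tissues at once were found in 548 tiles, or 1.20%. The tightest of these were T17 at chr7:137603701-137603800, 134070 bp from Glrx3, a glutaredoxin, and T18 at chr1:145509501-145509600, 734074 bp from Rgs18, a regulator of G protein signalling. T17 averaged 57.2% ± 3.84 in liver, 51.3% ± 3.97 in brain and 47.7% ± 3.04 in heart (SD, n = 12, 6 and 6), and T18 49.4% ± 4.25, 54.1% ± 3.52 and 41.8% ± 3.64.

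The level of a desert tile depended strongly on the short sequence around its CpG. Of the desert tiles, 47.3% held the sequence CCGG, the recognition site of the restriction enzyme MspI, and 48.5% held TCGA, the recognition site of TaqI, while 8.03% held neither. Both were searched as these letters within the tile, and each reads the same on both strands. Of the intragenic tiles, here without weights, 58.0% held CCGG and 35.9% TCGA, and of all 758685 tiles 58.1 and 37.1%. The enzymes that the sequencing service used are not given in the sources used here. In TCGA the CpG is also flanked by T and A. The comparison by site was chosen after the values had been seen.

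Among desert tiles with 1 CpG, those with TCGA (9411 tiles, 51.6%) had the lowest levels. They averaged 62.8% ± 1.06 in liver, 70.01% ± 2.49 in brain and 53.6% ± 0.611 in heart (SD, n = 12, 6 and 6). Those with CCGG (7320 tiles) averaged 79.5% ± 0.462, 79.3% ± 1.32 and 71.0% ± 0.346, and those with neither (1523 tiles) 76.9% ± 0.530, 79.0% ± 0.839 and 70.5% ± 0.349. The tiles with TCGA were lower than those with CCGG in every library. Within a library the difference came to -16.8 points ± 0.639 for liver, -9.28 ± 1.27 for brain and -17.4 ± 0.348 for heart (exact sign-flip permutation test, n = 12, 6 and 6, adjusted p = 0.00146, 0.0312 and 0.0312). It was smaller in brain than in liver by 7.47 points (exact permutation test, adjusted p = 0.000323) and than in heart by 8.09 points (exact permutation test, adjusted p = 0.00325). Few single-CpG tiles had a CpG flanked by A or T on both sides outside this site. The 191 desert tiles with ACGA on either strand averaged 73.9% ± 0.904 in liver, 78.2% ± 0.994 in brain and 67.3% ± 0.6247 in heart. The 144 with ACGT, which reads the same on both strands, averaged 72.6% ± 0.624, 76.1% ± 0.814 and 66.6% ± 0.752. Both means lay above that of the tiles with TCGA and below that of the tiles with CCGG in each tissue, and these differences were not tested. This position was not particular to such flanks. The 226 desert tiles with ACGG on either strand also lay there, with 76.1% in liver, 76.4% in brain and 70.1% in heart. So did the 180 tiles with CCGA, with 77.6, 77.7 and 70.5%. With any other pair of flanking bases the mean lay above that of the tiles with CCGG in each tissue. In intragenic tiles with 1 CpG the TCGA minus CCGG difference came to -7.06 points for liver, -3.61 for brain and -7.54 for heart. The order did not hold for desert tiles with more CpGs. Those with 4 CpGs and only TCGA averaged 77.8% in liver, 76.8% in brain and 71.7% in heart. With only CCGG the averages were 77.9, 76.2 and 72.6%. At 6 CpGs the 125 desert tiles with only TCGA averaged 80.8, 78.5 and 75.2%. The 324 with only CCGG averaged 68.9, 67.1 and 65.0%.

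Among tiles with 1 CpG, deserts and genes therefore ranked differently by site. In single-CpG tiles with CCGG the desert level exceeded the intragenic one by 4.18 points ± 0.375 in liver, 6.03 ± 0.426 in brain and 3.09 ± 0.0821 in heart (exact sign-flip permutation test, n = 12, 6 and 6, adjusted p = 0.00146, 0.0312 and 0.0312). With TCGA the deserts were below the intragenic tiles in every liver and heart library (mean differences of -5.51 and -6.75 points, exact sign-flip permutation test, adjusted p = 0.00146 and 0.0469), and in brain they differed by 0.356 points ± 1.33 (exact sign-flip permutation test, n = 6, adjusted p = 0.531). Single-CpG tiles with neither site had differences of 1.69, 4.43 and 0.754 points. With only TCGA and 2 CpGs, deserts averaged 72.6% in liver, 75.5% in brain and 64.7% in heart. Intragenic tiles of this kind averaged 72.4, 72.1 and 65.9%. With only TCGA and 3 CpGs, deserts averaged 77.1, 77.7 and 70.6%, above the intragenic tiles with 72.5, 71.1 and 66.7%. Weighted on CpG number and site together, all desert and intragenic tiles differed by 3.38 points in liver, 5.98 in brain and 2.47 in heart, close to the values without the site.

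The comparison of tissues moved with the site as well. In single-CpG desert tiles with CCGG, liver and brain differed by 0.244 points, and their libraries overlapped (exact permutation test, adjusted p = 0.558). In those with TCGA, brain lay above liver with no overlap (a liver minus brain difference of -7.23 points, exact permutation test, adjusted p = 0.000162). Over desert tiles of any CpG number without TCGA, the mean levels were 78.8% in liver, 78.2% in brain and 71.9% in heart, so the heart was still lower by 6.91 and 6.27 points (exact permutation test, adjusted p = 0.000323 and 0.00325), while liver lay 0.638 points above brain (exact permutation test, adjusted p = 0.0977). Without TCGA, 32.2% of desert tiles were partial in liver, 34.7% in brain and 48.2% in heart. Among the tiles partial in all 3 tissues, 66.5% held TCGA, compared with 32.2% of those high in all 3.

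**Figure D3:**
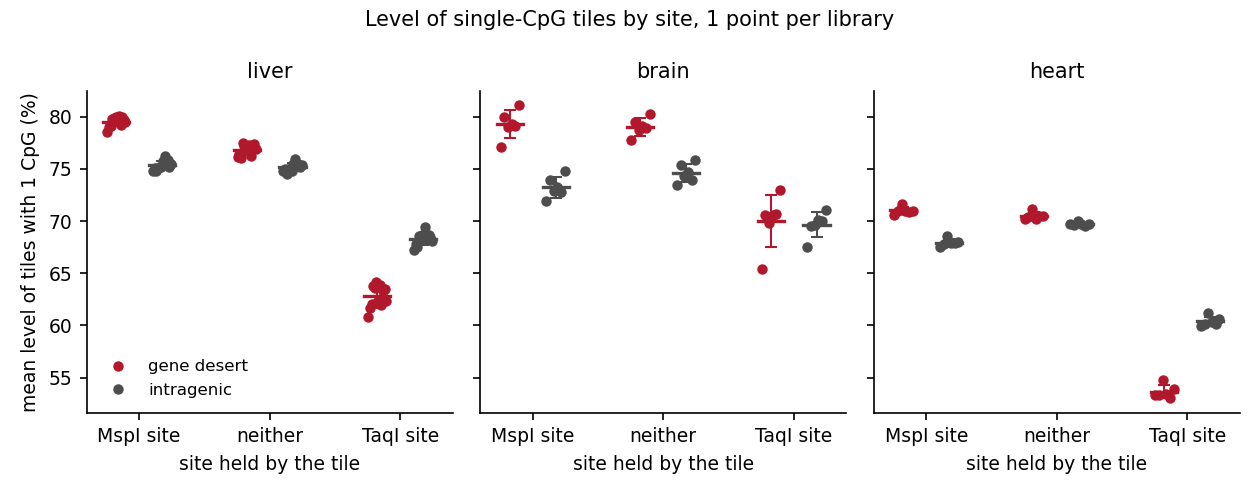
Mean level (%) of tiles with 1 CpG that hold the MspI site CCGG, neither site or the TaqI site TCGA, 1 point per library, in desert (red) and intragenic tiles (grey), with the mean (line) and SD over libraries (bars). The vertical axis does not start at 0. Desert tiles with the TaqI site averaged 62.8% in liver, 70.01% in brain and 53.6% in heart, below desert tiles with the MspI site in every library.

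The levels of desert tiles changed less with CpG number than those of intragenic tiles, which include tiles at transcription starts and in exons. Introns away from transcription starts were not compared by CpG number. From tiles with 1 CpG to tiles with 6, the share of low tiles went from 2.42 to 13.4% in liver, from 0.981 to 12.5% in brain and from 4.22 to 14.5% in heart. In intragenic tiles it went from 6.54 to 48.3% in liver, from 4.57 to 48.3% in brain and from 7.47 to 49.2% in heart. At 6 CpGs the 560 desert tiles had a mean level of 72.8% in liver, 70.6% in brain and 68.3% in heart, compared with 44.1, 42.3 and 41.1% for 15051 intragenic tiles. Desert tiles with 3 and 4 CpGs had the highest mean level in liver, with 78.0% for each, and those with 4 in heart, with 72.5%.

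Only 535 desert tiles, 1.17% of the members, had a low level in all 3 tissues, and they lay in 216 deserts. They were denser in CpGs than the other members, as 42.1% held 4 to 6 CpGs, compared with 11.4% of all members, and their mean GC content was 53.1% against 45.3%. Of these low tiles 35.1% touched a predicted RefSeq transcript and 29.0% a GENCODE transcript, compared with 13.9 and 14.8% of all members. These are transcript models outside the curated set that defined the deserts. The lowest levels of all were found in T15, 334091 bp from Prdm2, a histone methyltransferase, and T16, 132063 bp from Lsm5, a subunit of an RNA-binding complex. T15 was at 0% in 23 of 24 libraries and at 5.8% in brain library 5. T16 ranged from 0 to 1.6% over all libraries. It lay at chr6:56568901-56569000, has 6 CpGs and a GC content of 71%, and its sequence is shown as an example of a CpG-dense unmethylated desert tile, again with the CpGs in capitals. Both tiles touched a GENCODE transcript.
T16: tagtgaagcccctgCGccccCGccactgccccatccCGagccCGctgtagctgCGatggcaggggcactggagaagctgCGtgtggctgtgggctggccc

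Beyond the limit of 100 kb, the level changed little with distance in liver and heart. The median member lay 196350 bp from the nearest curated transcript, 5400 lay more than 500 kb away and 1118 more than 1000 kb. Tiles more than 500 kb away, compared with tiles at 100 to 200 kb and weighted on CpG number, were lower by 0.717 points in liver and by 1.02 points in heart (differences of -0.717 ± 0.281 and -1.02 ± 0.134) and higher by 2.23 points ± 0.714 in brain, in every library of each tissue (SD, exact sign-flip permutation test, n = 12, 6 and 6, adjusted p = 0.00146 in liver and 0.0312 in heart and brain). The brain difference lay above that of liver (liver minus brain -2.94 points, exact permutation test, adjusted p = 0.000323) and above that of heart by 3.25 points (exact permutation test, adjusted p = 0.00325). TCGA was present in 55.1% of the far tiles and in 45.6% of the near ones. With weights on CpG number and site, the difference was 0.269 points in liver and 0.0584 points in heart, no longer below 0, and 2.78 points in brain (exact sign-flip permutation test, adjusted p = 0.0176, 0.281 and 0.0469). In brain library 1 the difference weighted on CpG number alone was 0.875 points, the lowest of the brain libraries, and without this library the brain mean was 2.50 points.

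The brain level stood at 75.2% at 100 to 200 kb, 76.4% at 200 to 300 kb, 77.0% at 300 to 500 kb, 77.6% at 500 to 1000 kb and 79.7% beyond 1000 kb, each weighted on CpG number. The SD over the 6 libraries grew from 1.30 to 2.07 points over the same bins. In liver and heart the bins stayed between 74.4 and 74.9% and between 66.7 and 67.8%. The tiles farthest from any curated transcript were T1, 1999860 bp from Olfm4, and T2, 1946979 bp from Iftap. GENCODE transcripts lay nearer, at 98331 bp from T1 and 57823 bp from T2. T1 averaged 73.3% ± 5.83 in liver, 87.3% ± 9.35 in brain and 65.7% ± 4.82 in heart, and T2 85.5% ± 2.12, 92.4% ± 1.56 and 80.3% ± 3.62 (SD, n = 12, 6 and 6). In both tiles brain was highest and heart lowest, as in the farthest bin as a whole.

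**Figure D4:**
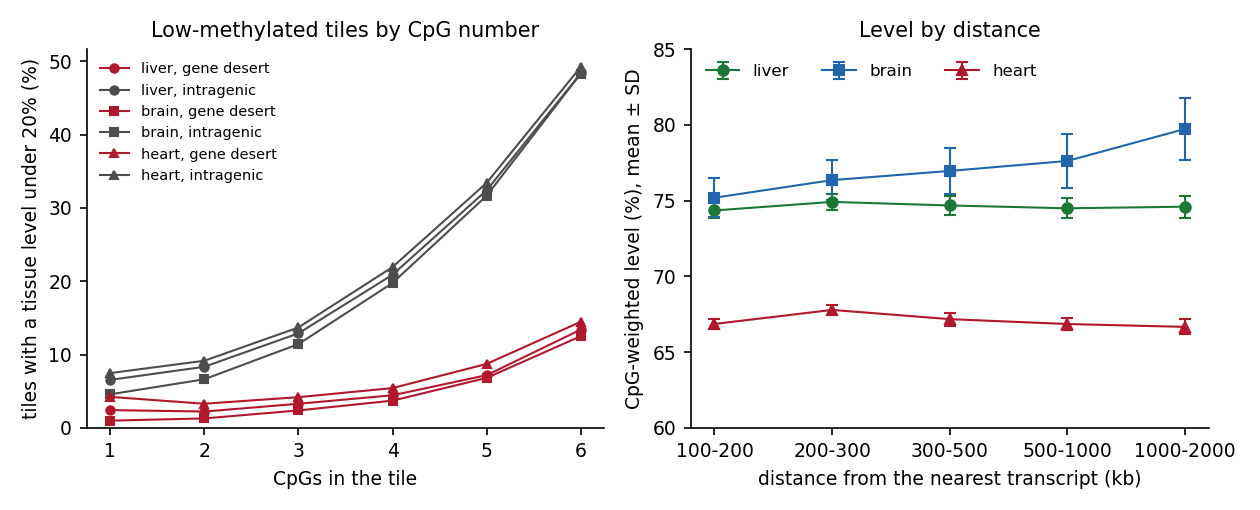
Left, share of tiles (%) with a tissue level under 20% by the number of CpGs in the tile, for desert (red) and intragenic tiles (grey) of each tissue. Right, level (%) of desert tiles weighted on CpG number by distance from the nearest curated transcript in kb, with the mean and SD over libraries, on an axis that does not start at 0. At 6 CpGs 12.5 to 14.5% of desert tiles were low, compared with 48.3 to 49.2% of intragenic tiles, and with distance the brain level went from 75.2 to 79.7%.

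Libraries of 1 tissue agreed closely over the members. The correlation of levels between libraries ran from 0.886 to 0.922 in liver, from 0.802 to 0.912 in brain and from 0.899 to 0.937 in heart, over 45632 tiles that all libraries share. Between tissues it was lower, from 0.600 to 0.708 for liver and brain, from 0.650 to 0.789 for brain and heart and from 0.735 to 0.782 for liver and heart. The median SD of a tile over libraries came to 5.71 points for liver, 6.05 for brain and 5.57 for heart, and it was largest, with 8.52, 9.88 and 7.24 points, for tiles at 40 to 60%. An SD above 10 points was found for 10.1% of the tiles in liver, 19.2% in brain and 10.2% in heart. Desert tiles were not more variable than intragenic tiles of like level and CpG number in liver or brain. The mean deviation of a library from the other libraries differed by 0.00347 points ± 0.0683 in liver and 0.0448 ± 0.242 in brain (exact sign-flip permutation test, n = 12 and 6, adjusted p = 0.857 for both), and by 0.202 ± 0.0920 in heart, above 0 in 6 of 6 libraries (exact sign-flip permutation test, adjusted p = 0.0938).

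Brain library 1 stood apart from the other brain libraries. Its desert level of 73.5% was the lowest of the 6, and its desert tiles with 1 CpG and TCGA were at 65.4%, against 69.9 to 72.9% in the others. Its levels correlated more with heart and liver libraries, with median r of 0.779 and 0.698, than did those of the other brain libraries, with at most 0.710 and 0.656. Without it the mean brain level was 76.4%, the brain level exceeded that of liver by 2.06 points, and the median SD in brain was 5.46 points. Whether other cells, depth or DNA quality differed in this library was not tested.

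For single tiles, a difference of at least 25 points at an adjusted p of 0.01 or less was called (limma on fractions over all 758685 tiles, with adjustment over all of them). Between liver and brain 4468 desert tiles were called, or 9.79%, with 9.8% of all tiles called. Liver was higher in 2371 of them (5.20%, against 5.04% of all tiles) and brain in 2097 (4.60%, against 4.76%). At this threshold the deserts had the same share as the whole table. At a difference of 10 points 28.4% of desert tiles were called, against 24.5% of all tiles, and the balance turned, with brain higher in 7267 (15.9%, against 11.3% of all tiles) and liver in 5688 (12.5%, against 13.1%). Between liver and heart 4268 were called, or 9.35%, against 10.8% of all tiles, with liver higher in 3417 (7.49%, against 7.94%) and heart in 851 (1.86%, against 2.87%). Between brain and heart 6619 were called, or 14.5%, against 9.46% of all tiles. Brain was higher in 5665 of these (12.4%, against 7.7%) and heart in 954 (2.09%, against 1.75%). Among intragenic tiles weighted to the same CpG numbers the shares were 14.2, 15.7 and 12.2%, so the deserts lay below them in both comparisons with liver and above them between brain and heart.

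The share called between brain and heart was larger in tiles with TCGA and no CCGG than in those with CCGG only, in deserts and over all tiles. It was not larger in desert tiles with both sites, of which 10.5% were called, against 6.12% of all such tiles. Of the 20382 desert tiles with TCGA and no CCGG, 18.4% were called between brain and heart, against 11.97% of all such tiles, and brain was higher in 3531 of them, or 17.3%. Of the 19814 with CCGG only, 11.4% were called, against 8.42% of all such tiles, with brain higher in 1677, or 8.46%. Between liver and heart 7.73% of the desert tiles with TCGA only and 11.1% of those with CCGG only were called, against 10.9 and 11.2% of all such tiles. By CpG number, 19.1% of desert tiles with 1 CpG were called between brain and heart and 9.46% of those with 6. Intragenic tiles went the same way, from 14.2 to 5.003%. In any of the 3 comparisons 10289 desert tiles were called, or 22.5%, compared with 18.8% of all tiles. Among intragenic tiles weighted to the same CpG numbers the share was higher, at 25.9%.

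Tiles that were called against both other tissues in the same direction set 1 tissue apart. Heart lay below both in 1806 desert tiles (3.96%, against 3.66% of all tiles) and above both in 46 (0.101%, against 0.163%). Brain lay above both in 930 (2.04%, against 1.45%) and below both in 843 (1.85%, against 1.43%). Liver lay below both in 721 (1.58%, against 2.46%) and above both in 722 (1.58%, against 2.06%). Among intragenic tiles weighted to the same CpG numbers, heart lay below both in 5.13% and above both in 0.262%. For brain these shares were 1.87% above and 2.17% below, and for liver 3.51% below and 3.19% above. Only brain above both was thus more frequent in deserts than in these intragenic tiles. Desert tiles with brain above both were poor in CpGs, with a mean of 1.69, and 68.0% of them held TCGA, whereas those with brain below both had a mean of 2.52 CpGs and 28.6% held TCGA. Those with heart below both had 2.02 CpGs and TCGA in 43.4%.

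The tiles farthest apart between liver and the other tissues differed by over 60 points. T3, on chromosome 16 and 150736 bp from Gm31583 on the side of Lppos, ranged from 8.7 over a median of 17.1 to 26.3% in liver, but from 90 to 97% in brain and from 89.2 to 100% in heart. It lay in a predicted RefSeq transcript and a GENCODE transcript, so that it is a desert tile only by the curated set. T4, on chromosome 7 and 135476 bp from Gm36849, ranged from 9.8 over 19.2 to 28% in liver, from 88.9 to 96.3% in brain and from 87.3 to 96.4% in heart. In both tiles every liver library lay far below every brain and heart library. Their differences from brain were -75.9 and -74.1 points (limma, adjusted p = 2.2e-18 and 4.6e-18). T3 to T14 were taken as the tiles farthest apart among those called in both comparisons without overlap. Their small p-values and the lack of overlap therefore follow from the choice.

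T5 and T6 showed the opposite pattern. T6, on chromosome 3 between Fbxw7, a subunit of a ubiquitin ligase, and 1700036G14Rik, ranged from 77.8 over 86.2 to 88.6% in liver, from 10.4 to 17.8% in brain and from 17.9 to 26.1% in heart, and it touched a GENCODE transcript. T5, on chromosome 12, was at 0% in all 6 brain and all 6 heart libraries and ranged from 35 over 69.9 to 81.8% in liver. It lay inside Igh, the immunoglobulin heavy chain locus (GeneID 111507, chr12:113258768-116009954), 6638 bp from the segment Ighv1-37. Gene segments of this kind are not listed as transcripts, and 330 desert tiles, or 0.723%, lay within 100 kb of one of the 666 autosomal segments for antigen receptors. Leaving these tiles out gave mean levels of 74.4, 76.0 and 67.0% in liver, brain and heart.

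For brain, T7 lay 128265 bp from Aco1, a cytosolic aconitase, and T8 lay 108100 bp from Pantr1, a long non-coding RNA. T7 ranged from 9.5 over 16.4 to 25.6% in brain, from 84.6 to 92.6% in liver and from 78.3 to 90.3% in heart. T8 ranged from 12 over 24.5 to 29.1% in brain, from 91.3 to 98.5% in liver and from 82.4 to 94% in heart. Each held 4 CpGs, and in both the brain libraries lay far below all others, without overlap. T9, 347197 bp from Gm20740, ranged from 73.3 over 94.8 to 96.2% in brain, from 0 to 17.6% in liver and from 13.8 to 30.4% in heart. The next curated gene on its other side, Pvt1, was farther off and ended at position 62260215. Pvt1 is a non-coding RNA gene next to Myc. T10, 122242 bp from Ttc29, ranged from 80.8 over 90.2 to 100% in brain, from 7.9 to 23.9% in liver and from 9.4 to 30.6% in heart. On its other side Ednra, an endothelin receptor, was farther off and ended at position 77724452. T9 and T10 held TCGA, in T9 as its only CpG, and T9 touched a GENCODE transcript.

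For heart, T11 lay 386019 bp from Psmd7, a subunit of the proteasome, and T12 lay 116167 bp from 1600027J07Rik, both on chromosome 8. T11 ranged from 11.1 over 21.1 to 32.8% in heart, from 71.1 to 94.4% in liver and from 76.5 to 92.9% in brain. T12 ranged from 9.1 over 13.6 to 22.7% in heart, from 65.7 to 85.4% in liver and from 66.7 to 85.2% in brain. In both tiles the heart libraries lay below all others, and T11 touched a GENCODE transcript. T13, 327715 bp from Pard3, a cell polarity protein, ranged from 77.5 over 78.8 to 92.9% in heart, from 20.5 to 42.9% in liver and from 20 to 41.2% in brain. T14, 244737 bp from Itga1, ranged from 83.1 over 90.8 to 92.7% in heart, from 20.8 to 33.8% in liver and from 29.2 to 65.6% in brain. The next curated gene on its other side was farther off, beginning only at position 116298270. It was Isl1, a transcription factor of heart progenitors and motor neurons. Liver minus heart was 63.0 points in T11, and brain minus heart was 61.4 points in T12, -51.2 in T13 and -43.8 in T14. Each was the smaller of the tile's differences from heart, by which the tile was chosen (limma, adjusted p from 7.1e-13 to 2.1e-08 for these 4 comparisons).

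**Figure D5:**
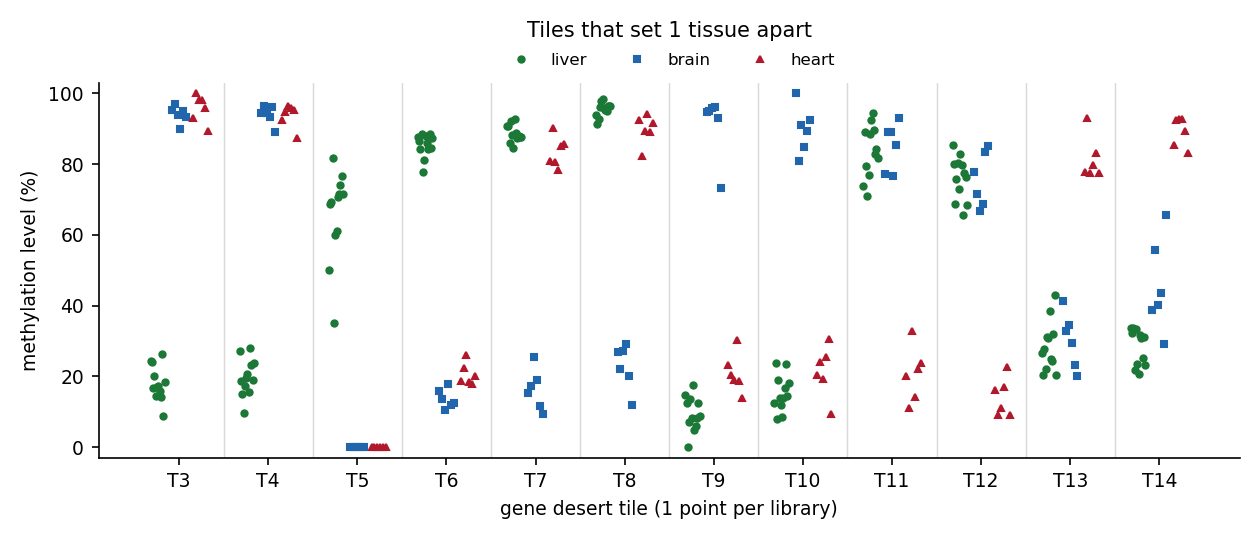
Methylation level (%) of 12 desert tiles in every library, 1 point per library, for liver (green circles), brain (blue squares) and heart (red triangles). T3 to T6 set liver apart, T7 to T10 brain and T11 to T14 heart. The tiles were chosen among those where the libraries of the tissue set apart do not overlap with the others.

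Neighbouring desert tiles resembled each other. In 14214 pairs of directly adjoining tiles the median absolute difference came to 9.63 points for liver, 8.27 for brain and 12.03 for heart, and both tiles fell into the same class of low, partial or high in 62.7, 69.1 and 63.5% of the pairs. Their levels correlated with r of 0.569 in liver, 0.696 in brain and 0.553 in heart. Adjoining tiles can share reads. The desert with most tiles, 311 over 1.003 Mb of chromosome 18 between Gm27239 and Mir5127, averaged 73.9% ± 0.809 in liver, 75.9% ± 1.98 in brain and 66.1% ± 0.420 in heart (SD, n = 12, 6 and 6). Of its tiles 48.9% were partial in liver, 44.1% in brain and 68.8% in heart, and 22.5% were called in at least 1 comparison of tissues, the same share as among all members.

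At the limit of the rule, 1925 members within 5 kb beyond it had mean levels of 75.9% in liver, 76.3% in brain and 67.7% in heart. The 2095 tiles up to 5 kb short of it had 73.5, 74.9 and 67.2%.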

How the data were processed

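A commercial service made the libraries and mapped the reads by its own undisclosed methods. The submitters' processing notes name Bismark, methylKit and mm10. The authors computed levels with methylKit in 100 bp tiles, kept tiles covered more than 10-fold in every replicate, dropped the most deeply covered tiles, and deposited for each tissue a methylation fraction between 0 and 1 per library, without counts. Here fractions were multiplied by 100. The 24 columns were assigned to the tissue of their table, and 0 columns were left out.

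Tiles were read against GRCm38.p6 (mm10), and deserts were defined with 43783 curated autosomal RefSeq transcripts. The members, lists and tests were chosen with earlier results of these data known. Libraries, not tiles, were the replicates. Differences within libraries were tested with exact sign-flip permutation tests and differences between tissues with exact permutation tests, two-sided, at 0.05, with Benjamini-Hochberg adjustment over 3 tissues or pairs (scipy 1.17.1). The smallest p possible was 0.000488 with 12 libraries and 0.0312 with 6. Tiles were called with limma 3.58.1 (R 4.3.3) on fractions over all 758685 tiles, with 1 spread per tile for the 3 tissues. Functions were tested on simulated data.

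Named tiles left out chromosome 18. They were the 2 farthest from any curated transcript, the 2 with the lowest mean and the tile with the largest SD in each tissue. The 2 with the smallest spread among those at 40 to 60% in all tissues were also named. For each tissue the 2 by which it lay farthest below and the 2 farthest above both others were taken, among called tiles without overlap. At most 1 tile per desert was taken in each part. Named deserts were the 3 with most tiles. The comparison by restriction site, the predicted RefSeq transcripts and the gene segments were chosen after the values had been seen. Alternatives were the distance, annotation, repeat and CpG limits, the intragenic tiles, the weights, the limits of partial methylation, the settings of limma and leaving out each library. Levels are given without an interval since depth is unknown. Sequences are from the mm10 reference with RefSeq annotation (Python 3.11.15, pandas 2.3.3). Of the listed blood cell markers, 1 gene is reported and the rest is not reported here. Gene descriptions are background.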

Additional observations from a re-analysis of the deposited data

Results flagged for a closer look

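In groups of 6 libraries, a value was singled out when its gap to the nearest other library was, as a share of the group's range, above Dixon's 95% critical value. This was the case in 12 of 74 groups examined. Many of the groups were computed from the same libraries and tiles, and some tiles were chosen by their spread or level. The count can therefore not be set against a share given by chance.

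Brain library 1 was lowest in 4 quantities. Its difference between desert and intragenic tiles was 4.84 points, and its difference between tiles over 500 kb and at 100 to 200 kb was 0.875 points. Its difference between single-CpG desert tiles with TCGA and with CCGG was -11.7 points. Between desert and intragenic single-CpG tiles with CCGG its difference was 5.19 points. Heart library 3 was highest of the heart libraries in its desert level, with 67.6%, in its share of high desert tiles, with 38.0%, and in the level of its single-CpG desert tiles with CCGG, with 71.7%.

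Among the named tiles, T9 was at 73.3% in brain library 6, T13 at 92.9% in heart library 2, T15 at 5.8% in brain library 5, T20 at 27.8% in heart library 6 and T21 at 80% in brain library 4, each away from the other libraries of the tissue.

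Some effects differed between tissues by the exact permutation test over libraries. The desert minus intragenic level differed by -2.83 points between liver and brain, 0.992 between liver and heart and 3.83 between brain and heart. The desert minus intragenic share of partial tiles differed by 8.30, -1.06 and -9.35 points for the same pairs. The difference between far and near desert tiles differed by -2.94, 0.303 and 3.25 points. The difference between single-CpG tiles with TCGA and with CCGG in deserts differed by -7.47, 0.622 and 8.09 points.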

How the results depend on the processing

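The direction of the desert minus intragenic level turned with the choice of intragenic tiles. Against introns at least 5 kb from transcription starts it was -2.14 points in liver, -2.42 in heart and 0.989 in brain, and its difference between liver and heart was 0.287 points. With weights on CpG number and site, the far minus near difference became 0.269 in liver and 0.0584 in heart. Without TCGA, liver exceeded brain by 0.638 points, the mean levels were 78.8, 78.2 and 71.9% in liver, brain and heart and the partial shares 32.2, 34.7 and 48.2%, and with TCGA the levels were 69.7, 73.6 and 61.6%. The excess of partial tiles in brain deserts was 1.16 points with weights on CpG number and site (exact sign-flip permutation test, n = 6, adjusted p = 0.0938). The heart level was 66.4% with GENCODE transcripts, 66.5% with predicted RefSeq transcripts and 66.3% for 1 to 3 CpGs, each further from the reported value than 1 SD over libraries. With limits of 30 and 70% the partial shares were 25.5, 25.2 and 37.4%, and with 10 and 90% they were 74.3, 72.6 and 84.5%. With weights on CpG number only, the excess deviation between libraries was 0.541, 0.306 and 0.668 points and passed the test in each tissue, and the scaled median absolute deviation was 5.04, 4.82 and 4.60 points. At a difference of 10 points 12955 tiles were called between liver and brain, 14482 between liver and heart and 18487 between brain and heart (28.4, 31.7 and 40.5%, against 24.5, 28.6 and 27.4% of all tiles), and at 40 points 1413, 1280 and 1069 (3.10, 2.81 and 2.34%, against 3.83, 3.83 and 1.93%). Between liver and brain the more frequent direction turned to brain higher at 10 points, with 7267 against 5688 (15.9 against 12.5%, over all tiles 11.3 against 13.1%). At 40 points it turned too, with 733 against 680 (1.61 against 1.49%). Over all tiles the direction turned as well at 40 points, with 2.31 against 1.52%. The cause of these changes was not tested.

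When each library was left out in turn, the desert minus intragenic level ran from 2.99 to 3.12 points in liver, 5.79 to 6.10 in brain and 2.03 to 2.10 in heart, the far minus near difference from -0.747 to -0.678, 2.08 to 2.50 and -1.05 to -0.987, and the median SD from 5.61 to 5.72, 5.46 to 6.03 and 5.23 to 5.56 points. With 5 libraries the exact sign-flip permutation test cannot go below p = 0.0625, so it says nothing there. Called tiles ran from 4382 to 4873 between liver and brain, 4233 to 4311 between liver and heart and 6267 to 7529 between brain and heart, the highest count in the first and last without brain library 1. No paired analysis was possible because the columns carry no mouse number, although brain and heart came from mice that also gave liver. Read depth is unknown, so counting error could not be set beside the levels.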

Other observations

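T19, the desert tile with the largest spread in liver, lay on chromosome 13 at chr13:39376401-39376500, 395290 bp from Gm40923, and held 3 CpGs. In liver libraries 1 to 6 its level was 17, 18.8, 14.2, 13.9, 9.7 and 19.2%, and in libraries 7 to 12 it was 72, 69.5, 88.9, 62.6, 67 and 68%. The values fell into 2 separate clusters of 6, with none between 19.2 and 62.6%. In brain it ranged from 79.8 to 92.6% and in heart from 73.5 to 87.8%, so neither showed such clusters. The columns carry no gender, so whether the clusters follow a label is unknown here.

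T21, with the largest spread in heart, lay 303773 bp from Lrfn5 and 157 bp from a GENCODE transcript, with 1 CpG. Its heart libraries were at 5.9, 80, 85.7, 0, 0 and 91.3%, and its liver libraries ranged from 6.7 to 86.7%, whereas in brain it ranged from 80 to 100%. T20, with the largest spread in brain, lay 155033 bp from Gm31333 on the side of Myt1l, a neuronal transcription factor. Its brain libraries were at 30, 70.6, 0, 69.2, 33.3 and 0%, and its highest level was 30.8% in liver and 27.8% in heart.

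Over GC content, the brain differed from the other tissues at the AT-rich end. In desert tiles with a GC content under 35% the mean level was 76.5% in brain, 70.4% in liver and 62.8% in heart, and at 45 to 49% it was 76.4, 75.7 and 68.1%. At 60% or more it was lowest in all 3, with 67.8, 68.1 and 61.3%.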
